A study of Mus musculus with 6 samples.

Results

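The 67 genes described here are the protein-coding genes whose mouse symbol starts with Eif or Eef, the translation initiation and elongation factors with their regulators, among 55401 genes in the deposited tables. Eif2s3x and Eif2s3y also start that way and were left out. The rule that picks them uses the gene symbol alone. The study sequenced poly(A) RNA from the myocardium, the muscle wall of the heart, of male wild-type (WT) mice given an injection of streptozotocin (STZ) or of phosphate-buffered saline (PBS), with 3 libraries in each group. STZ destroys pancreatic beta cells and is used to make mice diabetic. All 6 libraries carry a time label of 8 weeks, and neither the event it counts from nor the strain or age of the mice is given in the sources used here. Whether each library is its own animal is not stated in the labels. A p-value here therefore reflects the variation among libraries, part of which could be technical.

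Protein synthesis starts when eIF2 brings the initiator tRNA to the small ribosomal subunit, the multi-subunit eIF3 holds that subunit together with the other factors, and the cap-binding complex eIF4F (eIF4E, eIF4G and the helicase eIF4A) recruits the mRNA. eEF1A then delivers each aminoacyl-tRNA, its exchange factor eEF1B recharges it, and eEF2 moves the ribosome along the message. The step is controlled by kinases of eIF2, by the eIF4E-binding proteins that hold back eIF4E until mTORC1 phosphorylates them, and by the eEF2 kinase, which slows elongation. Adult heart and skeletal muscle are known for expressing the eEF1A isoform encoded by Eef1a2, while most other tissues use Eef1a1.

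Levels are in FPKM, fragment counts scaled by gene length and by library size, so genes may be set side by side within a library. The file of PBS replicate 3 lists 7711 of the 55401 genes and 36 of the 67 members, so tests and means use STZ replicates 1 to 3 and PBS replicates 1 and 2, and the value of PBS replicate 3 is added where it is listed. The FPKM of the 5 complete libraries summed to between 531384 and 589719, with 42.0% to 45.5% from mitochondrial genes in STZ libraries and 47.1% to 47.3% in PBS libraries. The cardiomyocyte genes Myh6 and Tnnt2 were present in every complete library, and the 9 cardiomyocyte markers summed to 8031 to 9818 FPKM in STZ libraries and 9076 to 9939 FPKM in PBS libraries. Of the 9, 7 had a negative and 2 a positive log2 fold change, and none passed the test used below. Myh6, Ryr2 and Ttn were lower in every STZ library than in PBS replicates 1 and 2, each at an unadjusted p under 0.05 in that test. Tnnt2 and Actn2 were higher in every STZ library. The 8 endothelial markers summed to 301 to 420 FPKM in STZ libraries and 196 to 202 FPKM in PBS libraries, with most of that gap in Fabp4, and the 7 others summed to 127 to 170 FPKM in STZ libraries and 122 to 123 FPKM in PBS libraries. Neutrophil markers summed to 42.7 to 59.6 FPKM in STZ libraries and 3.66 to 8.22 FPKM in PBS libraries. The sums of the atrial markers overlapped between the groups and followed Nppa, and the 5 others summed to 1.5 to 460 FPKM in STZ libraries and 55.6 to 343 FPKM in PBS libraries. Erythroid markers summed to 329, 959 and 361 FPKM in STZ replicates 1 to 3 and to 310 and 283 FPKM in PBS replicates 1 and 2, so STZ replicate 2 was alone in being far above the rest. Fibroblast markers overlapped between the groups in their sum. Of the 10, 6 had a negative and 4 a positive log2 fold change. Col3a1, Col1a1, Pi16 and Col1a2 passed the test used below, all lower in STZ. Dcn, Pdgfra and Tcf21 were higher in every STZ library than in PBS replicates 1 and 2. Without Gsn the 9 others summed to 104 to 107 FPKM in STZ libraries and 118 to 134 FPKM in PBS libraries. The sums of the 8 smooth muscle and pericyte markers also overlapped. Without Rgs5 the 7 others summed to 60.7 to 74.1 FPKM in STZ libraries and 85.5 to 103 FPKM in PBS libraries. All 8 lymphocyte markers and the neutrophil marker Ly6g stayed under 0.5 FPKM in every complete library. The part of these cell types in the results below was not tested.

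Genes of 4 kinds of factor changed in the STZ libraries: the eEF1A pair, the eEF2 kinase, an eIF4E-binding protein and an eIF3 subunit. By mean level, 5 of the 67 members were at 100 FPKM or more (Eef2, Eef1a2, Eef1a1, Eif1 and Eif3h), 30 at 10 to 100, 28 at 1 to 10 and 4 under 1. Their share was taken of the FPKM left without mitochondrial genes and 11 near-identical nuclear copies of them. Together they made up 1.24% to 1.36% of it in STZ libraries and 1.17% to 1.20% in PBS libraries. Those nuclear copies held 19.1% to 20.8% of all FPKM in STZ libraries and 19.8% to 19.9% in PBS libraries. Of the 63 members that reached 1 FPKM in at least 2 libraries, 4 were higher and 1 was lower in STZ by limma on log2(FPKM + 1), with adjusted p under 0.05, where 5.82% of all genes tested were called in either direction. The higher ones were Eif4ebp1, Eef2k, Eef1a1 and Eif3f, and the lower one was Eef1a2. The share called higher, 6.35%, stood beside 3.64% of all 11556 genes tested, and the share called lower, 1.59%, beside 2.17%. STZ and PBS libraries did not overlap for 38 members (60.3%), 26 of them higher and 12 lower in STZ, beside 47.4% of all genes tested (28.7% higher, 18.8% lower). At an unadjusted p under 0.05 there were 14 members higher and 4 lower, beside 16.4% and 10.2% of all genes. A positive sign was found in 33 of 63 members (52.4%), beside 57% of all genes. The median log2 fold change was 0.08 over the members and 0.06 over all genes tested. The set as a whole was close to the background in direction. Because these are pieces of whole tissue, fewer cells of a type and less RNA per cell cannot be told apart for any of them.

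**Figure D1:**
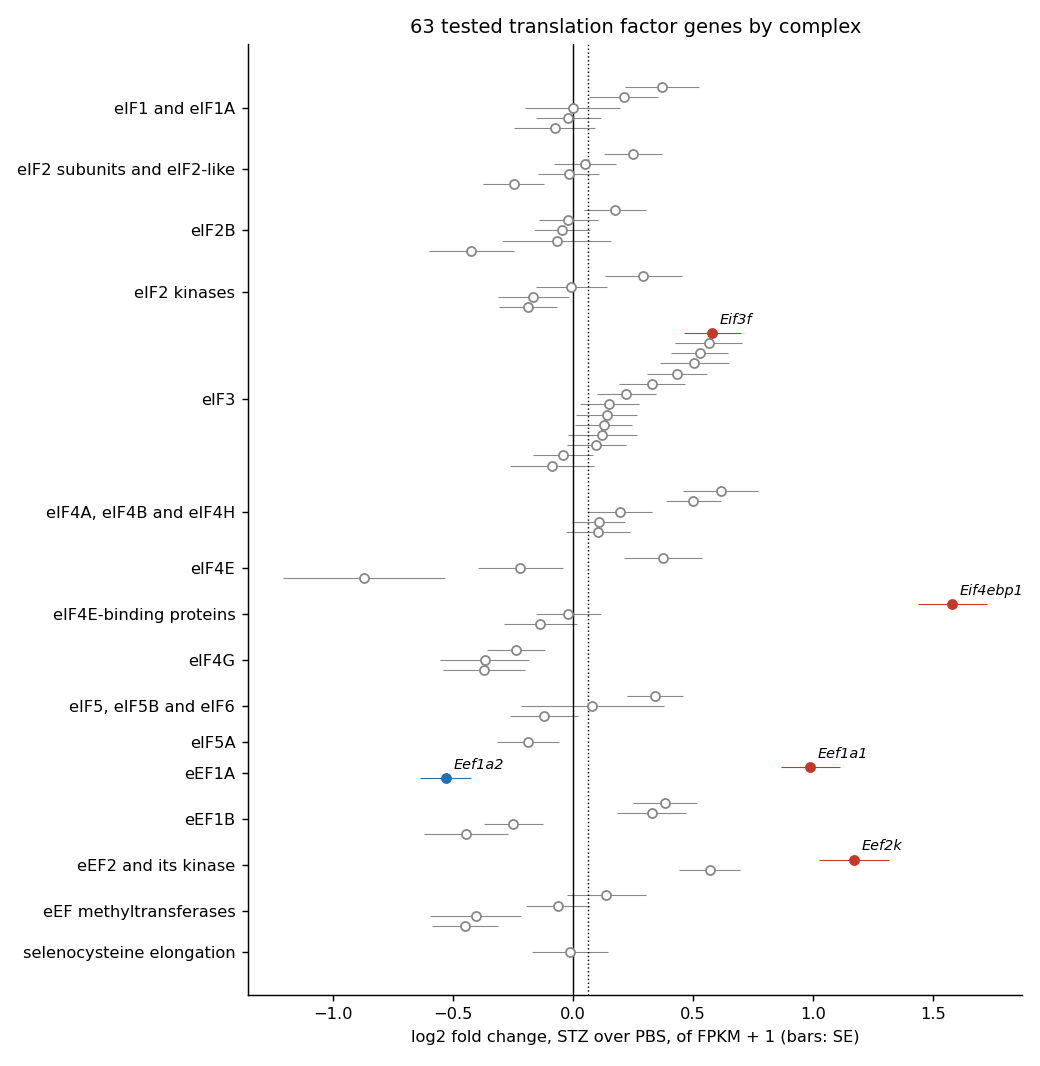
Log2 fold change (STZ over PBS, of FPKM + 1) of the 63 tested genes, grouped by complex from initiation at the top to elongation at the bottom, with bars of 1 SE. Filled points are the 5 genes with adjusted p under 0.05 (red higher, blue lower in STZ), and the dotted line is the median of all genes tested, 0.06.

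The transcripts for the elongation factor eEF1A, one of the most abundant proteins of the cell, had a different isoform mix in the STZ hearts, with Eef1a1 higher and Eef1a2 lower. Eef1a1 (ENSMUSG00000037742, GRCm38 chr9:78478449-78489151) had 330, 377 and 367 FPKM in STZ replicates 1 to 3, against 190 and 170 FPKM in PBS replicates 1 and 2. Eef1a2 (ENSMUSG00000016349, chr2:181147653-181157014) had 386, 422 and 406 FPKM in STZ libraries, against 593, 576 and 582 FPKM in all 3 PBS libraries. Every STZ library was above the PBS libraries for Eef1a1 and below them for Eef1a2. Eef1a1 averaged 358 ± 24.9 FPKM in STZ (SD, n = 3) and 180 ± 14.0 FPKM in PBS (SD, n = 2), 1.99-fold higher, with a log2 fold change of 0.99 ± 0.12 (SE) and an adjusted p of 0.0152. Eef1a2 averaged 405 ± 18.3 FPKM in STZ (n = 3) and 585 ± 12.4 FPKM in PBS (n = 2), 0.692 times the PBS level, with a log2 fold change of -0.53 ± 0.11 and an adjusted p of 0.0440.

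The summed level of the pair was nearly even between the groups. Eef1a1 and Eef1a2 together gave 715, 799 and 773 FPKM in STZ libraries, against 783 and 746 FPKM in PBS libraries, with means of 762 ± 42.8 FPKM in STZ and 764 ± 26.4 FPKM in PBS. The mix differed. Eef1a2 made up 53.9%, 52.9% and 52.5% of the pair in STZ libraries, against 75.8% and 77.2% in PBS libraries, a difference of -23.4 percentage points (exact permutation test, two-sided, p = 0.1, adjusted over 13 isoform shares 0.26). With 3 libraries against 2, 0.1 is the smallest p this exact test can give, so no share can pass on it. Eef1a1 has 18 near-identical copies elsewhere in the genome, whose listed FPKM sum to 8.80% of its own level. With them added it averaged 387 ± 26.6 FPKM in STZ and 199 ± 18.2 FPKM in PBS, 1.95-fold higher. The call on Eef1a2 was lost in all 5 fits that left out 1 library (log2 fold change -0.56 to -0.50), with adjusted p 0.0552 to 0.0775 where that library was STZ. It was also lost without the filter on low values (0.113), in TPM (0.0778), without the trend (0.0573) and with the replicate number as a block (0.0895). The call on Eef1a1 was lost without the filter (0.0621) and with that block (0.0660). It was also lost without PBS replicate 1 and without PBS replicate 2, where the log2 fold change was 1.07 and 0.91. The endothelial marker sum, mostly through Fabp4, and the neutrophil marker sum were higher in the same STZ libraries. Of the cardiomyocyte markers, Myh6, Ryr2 and Ttn were lower and Tnnt2 and Actn2 higher in those libraries. The part of these cell types in the isoform mix was not tested.

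**Figure D2:**
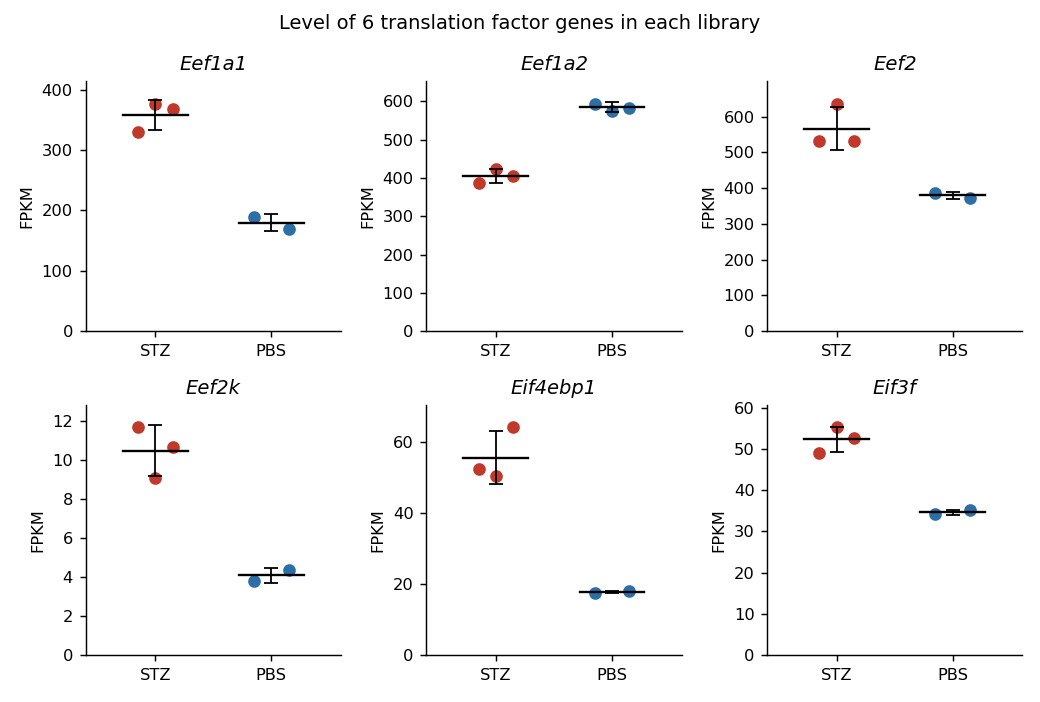
FPKM of 6 translation factor genes in each library, STZ on the left and PBS on the right. Points are libraries, the wide line is the mean and the bar 1 SD over 3 STZ libraries and PBS replicates 1 and 2, and PBS replicate 3 is plotted for Eef1a2 only, the one gene of the 6 it lists. No STZ point overlaps a PBS point.

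Of the 4 genes of eEF1B and its relatives, Eef1b2 and Eef1d, exchange factor subunits, had higher levels in every STZ library than in every PBS library that lists them, and Eef1g, the scaffold subunit, and Eef1e1, a component of the multi-synthetase complex, lower. Eef1d and Eef1g are not listed in PBS replicate 3. Among all genes tested, 47.4% had groups that did not overlap. None of the 4 genes passed limma's test, with 1 higher and 1 lower at an unadjusted p under 0.05. In the fit of all 6 libraries over genes listed in all, Eef1b2 was called higher and Eef1e1 lower. That fit called 12.6% of all its genes higher and 7.9% lower. Eef1b2 had 45.1, 45.2 and 48.9 FPKM in STZ libraries, against 32.2, 38.8 and 30.6 FPKM in PBS libraries (log2 fold change 0.38, adjusted p 0.134). Eef1g had 66.0, 76.7 and 68.5 FPKM in STZ libraries, against 82.2 and 85.4 FPKM in PBS libraries (-0.25, adjusted p 0.250). The sum over the 4 genes was 132 FPKM in both groups. The enzymes that methylate lysines of elongation factors are scarcer: 4 of 5 were tested and none was called, with 1 gene at an unadjusted p under 0.05, Eef1akmt4, at 1.46, 1.66 and 1.57 FPKM in STZ and 2.19 and 2.84 FPKM in PBS. The most abundant of them, Eef1akmt1, had 11.9, 8.88 and 12.2 FPKM in STZ libraries and 12.9, 16.98 and 12.5 FPKM in PBS libraries (-0.41, adjusted p 0.229, and -0.22 without PBS replicate 2). Eefsec, which brings selenocysteine tRNA to the ribosome, was at 1.22, 1.38 and 1.78 FPKM in STZ and 1.66 and 1.3 FPKM in PBS.

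The kinase that restrains eEF2 was higher. Eef2k (ENSMUSG00000035064, chr7:120842831-120907450), a calmodulin-dependent kinase that phosphorylates eEF2 and blocks its binding to the ribosome, had 11.7, 9.10 and 10.7 FPKM in STZ libraries, against 3.81 and 4.37 FPKM in PBS libraries. The lowest STZ library was above the highest PBS library by a wide margin. Its means were 10.5 ± 1.3 FPKM in STZ (n = 3) and 4.09 ± 0.396 FPKM in PBS (n = 2), 2.56-fold higher, with a log2 fold change of 1.17 ± 0.14 and an adjusted p of 0.0152. That call was lost without the filter on low values (0.0621) and with the replicate number as a block (0.0708). It was also lost without PBS replicate 1 and without PBS replicate 2, where the log2 fold change was 1.09 and 1.25. Eef2 itself had the highest mean level of the 67 genes and stood at 532, 636 and 531 FPKM in STZ libraries, against 386 and 373 FPKM in PBS libraries. The groups did not overlap, with a log2 fold change of 0.57 ± 0.13, but the adjusted p was 0.0553. Relative to Eef2, Eef2k stood at 2.20%, 1.43% and 2.01% in STZ libraries and at 0.986% and 1.17% in PBS libraries. The RNA level says nothing of the phosphorylation of eEF2.

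The highest fold change among the tested members was in the cap-binding step. Eif4ebp1 (ENSMUSG00000031490, chr8:27260329-27276674) encodes 4E-BP1, which competes with eIF4G for eIF4E. It had 52.2, 50.2 and 64.0 FPKM in STZ libraries, against 17.5 and 18 FPKM in PBS libraries. All 3 STZ libraries were far above both PBS libraries. The means were 55.4 ± 7.43 FPKM in STZ (n = 3) and 17.8 ± 0.332 FPKM in PBS (n = 2), a 3.12-fold difference, with a log2 fold change of 1.58 ± 0.15 and an adjusted p of 0.00806. Leaving out PBS replicate 1 or PBS replicate 2 ended the call (adjusted p 0.0856 and 0.0741), and it held in every other fit that tested the gene. Its paralog Eif4ebp2 had 16.1, 20.1 and 15.2 FPKM in STZ libraries and 19.3, 18.4 and 16.7 FPKM in PBS libraries, with overlapping groups (log2 fold change -0.14, adjusted p 0.604). Eif4ebp3 was low, with 1.05, 0.27 and 0.26 FPKM in STZ and 0.04 and 0.08 FPKM in PBS, and was not tested. Within the 3 binding-protein genes, Eif4ebp1 made up 75.3%, 71.1% and 80.5% in STZ libraries and 47.5% and 49.4% in PBS libraries (exact permutation p = 0.1, adjusted 0.26).

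The cap-binding proteins themselves did not pass, and only Eif4e reached an unadjusted p under 0.05. Eif4e, the classical one, had 4.36, 4.07 and 3.63 FPKM in STZ libraries and 13.0, 4.99 and 4.59 FPKM in PBS libraries. PBS replicate 1 stood apart, and the other PBS libraries were just above the STZ libraries, and the log2 fold change was -0.87 ± 0.34 (adjusted p 0.166). Without that library it was -0.26 (adjusted p 0.601). A pseudogene of Eif4e, Gm7327, is near-identical and its reads may be shared with it. Eif4e3, a divergent family member, was the most abundant of the family in all 5 complete libraries, with 27.5, 29.2 and 21.8 FPKM in STZ and 18.5 and 21.2 FPKM in PBS (0.37, adjusted p 0.205). Eif4e1b, known as a germline form, was listed at 0 throughout.

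Among the eIF4G, eIF4A, eIF4B and eIF4H genes, none passed the test. The eIF4G family genes Eif4g1, Eif4g2 and Eif4g3 had a lower level in every STZ library than in PBS replicates 1 and 2, and none was called or reached an unadjusted p of 0.05. Eif4g1 had 41.1, 46.7 and 32.8 FPKM in STZ libraries and 51.3 and 52.3 FPKM in PBS libraries (log2 fold change -0.37, adjusted p 0.220). Eif4g2, which promotes cap-independent initiation, had 49.5, 59.6 and 39.7 FPKM in STZ libraries and 66.2, 60.9 and 56.9 FPKM in PBS libraries (-0.37, adjusted p 0.259), so STZ replicate 2 lay above PBS replicate 3. Without STZ replicate 3 the log2 fold changes were -0.24 for Eif4g1 and -0.22 for Eif4g2. The 3 eIF4G genes summed to 93.3 ± 16.7 FPKM in STZ and 120 ± 2.81 FPKM in PBS, 0.780 times the PBS level. Eif4g2 held on average 53.0% of that sum in STZ and 53.1% in PBS. The sign was negative for all 3 genes under every scaling tried. The 5 genes of eIF4A, eIF4B and eIF4H had a positive sign, again under every scaling, with a sum of 141 ± 5.97 FPKM in STZ and 110 ± 3.34 FPKM in PBS, and none called. Of the 5, 2 were at an unadjusted p under 0.05. The helicase gene Eif4a1 had 22.6, 29.6 and 27.1 FPKM in STZ libraries and 15.7 and 18 FPKM in PBS libraries (0.62, adjusted p 0.0738), and its cofactor Eif4b had 51.9, 51.7 and 48.5 FPKM in STZ libraries and 36.2 and 34.8 FPKM in PBS libraries (0.50, adjusted p 0.0580). The second helicase gene, Eif4a2, had 21.3, 24.3 and 23.3 FPKM in STZ and 19.7, 23.0 and 20.96 FPKM in PBS, with overlapping groups. A processed copy of Eif4a1, Eif4a-ps4, listed at 22.8, 27.3 and 22.6 FPKM in STZ and 14.4 and 18.1 FPKM in PBS, is nearly identical in sequence to Eif4a1, so the split between them is uncertain. Their sum was 1.53-fold higher in STZ. Eif4a2 made up 48.5%, 45.1% and 46.3% of the pair in STZ libraries, against 55.7% and 56.1% in PBS libraries (exact permutation p = 0.1, adjusted 0.26). The 2 near-identical copies of Eif4a2, mostly Gm2999, listed 88.1% of its level. The share does not count the copies of either gene and is uncertain on both sides.

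**Figure D3:**
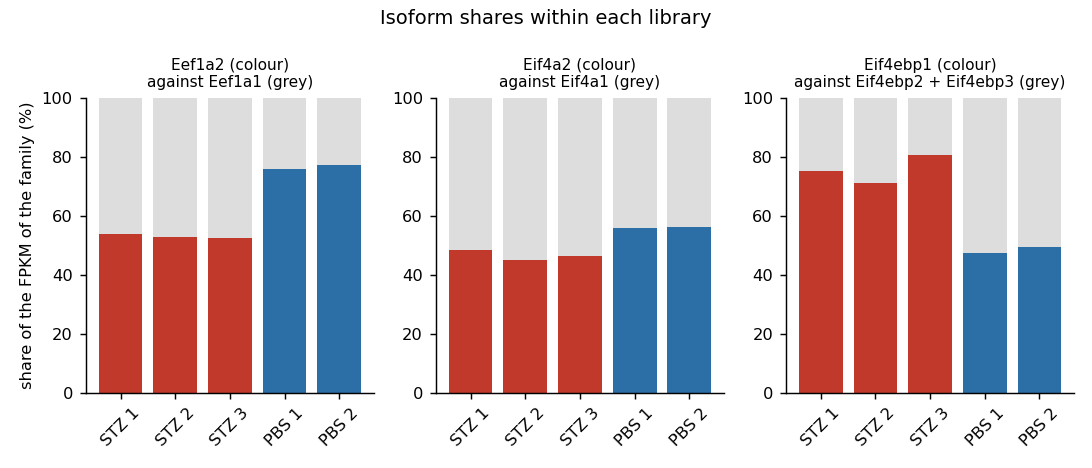
Share of the FPKM of a gene family held by one member in each library (percent), with the STZ libraries left of the PBS libraries. Near-identical copies are not counted. Eef1a2 holds 52.5% to 53.9% of the eEF1A pair in STZ and 75.8% to 77.2% in PBS, Eif4a2 45.1% to 48.5% in STZ and 55.7% to 56.1% in PBS, and Eif4ebp1 71.1% to 80.5% of the binding-protein genes in STZ and 47.5% to 49.4% in PBS.

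In eIF3, the scaffold of initiation, 12 of 14 subunit genes had a positive log2 fold change (13 in TPM) and the 10 whose groups did not overlap were all higher in STZ, where 57% of all genes tested had a positive sign and 28.7% were higher without overlap. Their sum was 416 ± 24.3 FPKM in STZ and 319 ± 5.81 FPKM in PBS. One subunit passed the test. Eif3f (ENSMUSG00000031029, chr7:108934417-108942951), which has also been described as a regulator of muscle mass, had 49.1, 55.3 and 52.8 FPKM in STZ libraries, against 34.2 and 35.1 FPKM in PBS libraries. With means of 52.4 ± 3.12 FPKM in STZ and 34.6 ± 0.672 FPKM in PBS, it was 1.51-fold higher, with a log2 fold change of 0.58 ± 0.12 and an adjusted p of 0.0450. The call was lost in every fit with 1 library left out (log2 fold change 0.54 to 0.63), with adjusted p 0.0612 to 0.0831 where that library was STZ. It was also lost under median centring (0.0514), quantile normalization (0.0553), TPM (0.0527), rescaling without mitochondrial genes (0.0517), no filter (0.0863) and the replicate number as a block (0.0960).

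Eif3h, Eif3e, Eif3g and Eif3m came next and missed the threshold. Eif3h, the most abundant eIF3 subunit, had 104, 121 and 132 FPKM in STZ libraries and 79.6, 79.98 and 81.9 FPKM in PBS libraries (0.57, adjusted p 0.0703). Eif3e had 13.2, 12.4 and 13.1 FPKM in STZ libraries and 8.2, 9.12 and 9.12 FPKM in PBS libraries (0.53, adjusted p 0.0557). Every library of STZ was above every library of PBS for both. With PBS replicate 3 added to the fit where it lists the gene, Eif3e, Eif3h and Eif3m passed (adjusted p 0.0230, 0.0275 and 0.0359). That fit called 6.38% of all its genes higher. The 8 subunits of the eIF3 octamer (a, c, e, f, h, k, l and m) all had a positive sign under every scaling, with a median log2 fold change of 0.38, and the other 6 subunits had a median of 0.13, with 4 positive. That split was made after the values were seen and has no test. Eif3j1 and Eif3j2, loosely attached and closely related in sequence, had overlapping groups, as did the octamer subunits Eif3a (0.12) and Eif3l (0.10). The groups did not overlap for 6 of the 8 octamer subunits and for 4 of the other 6. Among those 4 was Eif3g, with a log2 fold change of 0.51. Of the 14 genes, 5 were at an unadjusted p under 0.05, all higher in STZ.

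**Figure D4:**
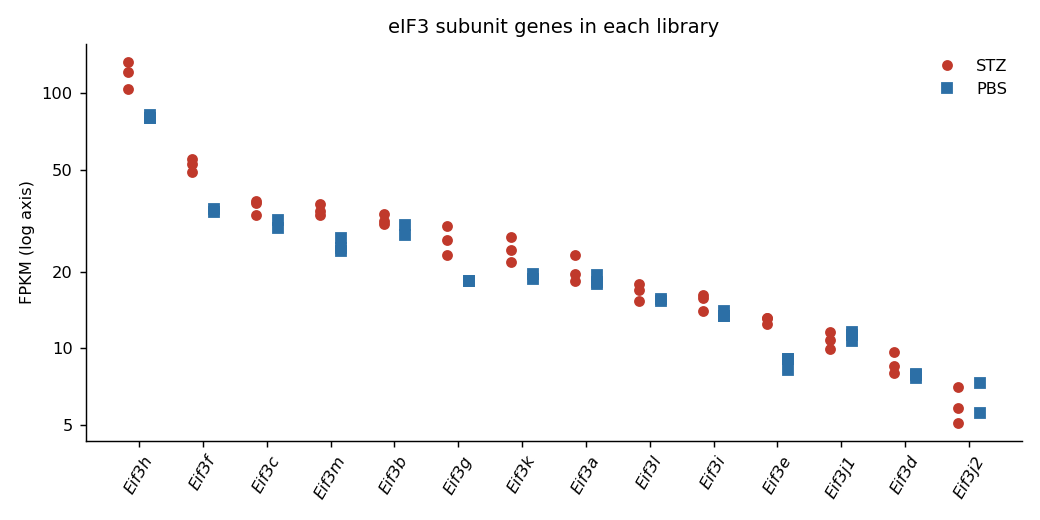
FPKM (log axis) of the 14 eIF3 subunit genes in each library, ordered by level, with STZ as circles left of PBS as squares and PBS replicate 3 plotted where it is listed. Eif3h, Eif3f, Eif3e, Eif3g and Eif3m show the clearest gap, and Eif3a, Eif3l, Eif3j1 and Eif3j2 overlap.

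The eIF2 arm of initiation was close to even. The 4 eIF2 genes and eIF2-like genes summed to 24.5 ± 1.13 FPKM in STZ and 24.6 ± 0.297 FPKM in PBS, and those of the exchange factor eIF2B to 45.9 ± 1.6 FPKM in STZ and 50.2 ± 2.18 FPKM in PBS. Their log2 fold changes ran from -0.25 to 0.25 in eIF2, with Eif2a highest, and from -0.42 (Eif2b4) to 0.17 (Eif2b3) in eIF2B. None of the 13 genes of eIF2, eIF2B and the eIF2 kinases was called, and none was at an unadjusted p under 0.05. Eif2s1, the subunit the kinases phosphorylate, had 5.78, 6.19 and 5.05 FPKM in STZ libraries and 7.03, 6.78 and 6.09 FPKM in PBS libraries (-0.25, adjusted p 0.269), and Eif2s2 had 10.7, 9.70 and 8.82 FPKM in STZ and 9.98 and 9.68 FPKM in PBS. A copy of Eif2s2, Gm9892, is near-identical and its FPKM was 68.3% of that of Eif2s2, so that value may be split. Eif2b5, the catalytic eIF2B subunit, had 15.4, 17.4 and 15.7 FPKM in STZ and 15.9, 16.9 and 17.5 FPKM in PBS (-0.02, adjusted p 0.930). The 4 kinases, each tied to a stress, were low. Eif2ak1 (haem and mitochondrial stress) had 5.36, 4.65 and 4.80 FPKM in STZ and 5.57, 5.95 and 5.31 FPKM in PBS, and Eif2ak2 (double-stranded RNA) had 1.75, 1.3 and 1.29 FPKM in STZ and 1.6, 1.88 and 1.99 FPKM in PBS. Eif2ak3 (endoplasmic reticulum stress) had 1.37, 1.73 and 1.75 FPKM in STZ and 1.41 and 1.86 FPKM in PBS, with overlapping groups. Eif2ak4 (amino acid shortage) had 1.08, 1.02 and 1.57 FPKM in STZ and 0.86, 0.75 and 0.71 FPKM in PBS (0.29, adjusted p 0.300), and it met the filter only through STZ libraries, so its difference is partly fixed by the filter.

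The other initiation factors held no call, and of them Eif1 and Eif6 were at an unadjusted p under 0.05, both higher. Eif1, which guards start codon choice, had 151, 193 and 148 FPKM in STZ libraries and 123 and 129 FPKM in PBS libraries (0.37, adjusted p 0.186). Its 20 near-identical copies listed 29.1% of its level, and with them the sum was 1.29-fold higher in STZ. Eif6, which keeps the large ribosomal subunit from joining too early, had 9.11, 9.57 and 8.55 FPKM in STZ libraries and 6.83, 7.08 and 6.76 FPKM in PBS libraries (0.34, adjusted p 0.130). It passed only in a fit of all 6 libraries restricted to genes listed in all (adjusted p 0.0319), which called 12.6% of all its genes higher. Eif5a, which helps ribosomes through stalling sequences, had 77.4, 82.2 and 73.8 FPKM in STZ and 95.7 and 82.0 FPKM in PBS (-0.19, adjusted p 0.393). Without PBS replicate 1 it was -0.078, and without PBS replicate 2 -0.30. Its paralog Eif5a2 was low, at 0.58, 0.39 and 0.50 FPKM in STZ and 0.35 and 0.23 FPKM in PBS, and was not tested. Eif5, the partner that triggers GTP hydrolysis on eIF2, varied widely within both groups, at 8.77, 5.68 and 12.01 FPKM in STZ and 9.58, 6.59 and 10.6 FPKM in PBS. The 4 genes beside Eif1 in its group (Eif1a, Eif1ad, Eif1ax and Eif1b) had log2 fold changes of -0.08 to 0.21, Eif5b, which joins the subunits, had -0.12, and the eIF4E transporter Eif4enif1 had -0.02. The last untested member, Eef1akmt3, was listed at 0 to 0.08 FPKM.

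Several of the members that were higher carry a terminal oligopyrimidine (TOP) start in human, a C followed by pyrimidines at the 5′ end of the mRNA, known to tie the translation of ribosomal proteins and some factors to mTORC1. The 9 mouse genes on that human list were Eef1a1, Eef1b2, Eef1d, Eef1g, Eef2, Eif3e, Eif3f, Eif3h and Eif4b. Of the 9, 8 had a positive log2 fold change under every scaling, the exception being Eef1g, where 57% of all genes tested were positive in the main fit. Of the 9, 2 (22.2%) were called higher, beside 3.64% of all genes tested. Their median was 0.53, beside -0.01 for the 54 other tested members and 0.06 for all genes tested, and the groups did not overlap for any of the 9, beside 47.4% of all genes tested. The list was chosen with these data known, so its direction is a description.

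Printed here, 5′ to 3′ on the strand of the gene, are 20 bases before the RefSeq start (GRCm38.p6) and 25 from it, for the 5 listed TOP genes with an entry, for Eef1a2, the lower isoform, and for Eif4g1, a scaffold with a lower level. Capitals mark the longest run of C and T that begins with C in the printed window. Other, shorter runs are left in lower case.
Eef1a1 (chr9:78481700-78481744, minus strand): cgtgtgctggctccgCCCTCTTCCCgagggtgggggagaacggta
Eif3f (chr7:108934395-108934439, plus strand): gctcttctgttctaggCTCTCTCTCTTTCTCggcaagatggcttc
Eef2 (chr10:81176611-81176655, plus strand): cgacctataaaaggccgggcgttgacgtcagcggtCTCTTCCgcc
Eif4b (chr15:102073753-102073797, plus strand): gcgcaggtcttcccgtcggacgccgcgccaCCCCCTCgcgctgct
Eef1b2 (chr1:63176811-63176855, plus strand): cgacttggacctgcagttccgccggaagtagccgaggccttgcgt
Eef1a2 (chr2:181156991-181157035, minus strand): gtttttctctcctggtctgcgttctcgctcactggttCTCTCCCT
Eif4g1 (chr16:20672707-20672751, plus strand): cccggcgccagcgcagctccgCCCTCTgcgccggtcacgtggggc
Such a run, a C followed by at least 4 bases that are each C or T, was searched on the strand of the gene only. It began within 5 bases of the start in Eef1a1 and Eif3f among the 5 listed genes, in 19.7% of the other 61 member promoters, in 41.3% of 75 ribosomal protein promoters and in 18.3% of all 32851 RefSeq promoters. Eif4g1, printed above as a gene off the list, also met this rule, with its run at offset 1 from the start. Within 25 bases, a window chosen after the values were seen, it began in 4 of the 5 listed genes, in 80% of ribosomal protein promoters and in 55.6% of all promoters, so a match in the wider window is common. Eef1d, Eef1g, Eif3e and Eif3h had no entry in that table.

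**Figure D5:**
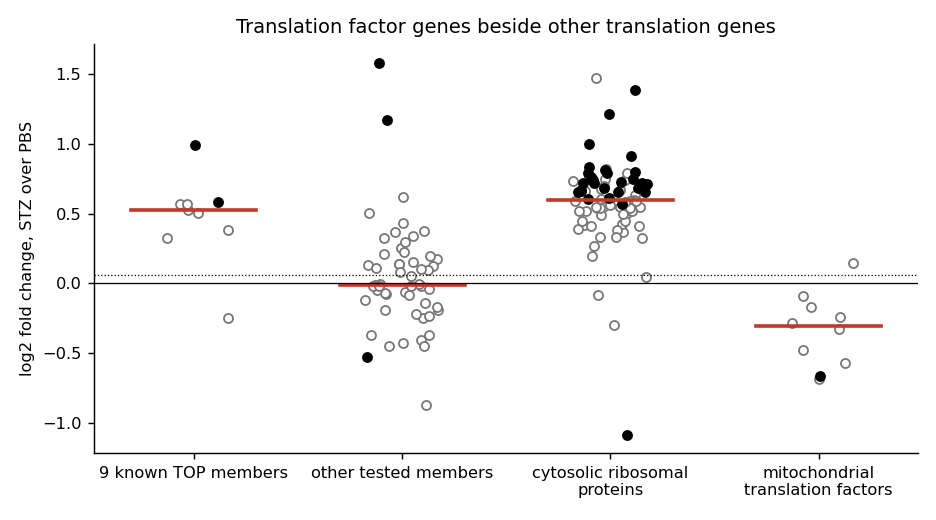
Log2 fold change (STZ over PBS, of FPKM + 1) of the tested genes in 4 groups of translation genes, with filled points past the adjusted p threshold, red lines at the group medians and the dotted line at the median of all genes, 0.06. The medians are 0.53 for the 9 TOP members, -0.01 for the other tested members, 0.60 for the cytosolic ribosomal proteins and -0.31 for the mitochondrial translation factors.

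Beside the members, the cytosolic ribosomal protein genes, the other large TOP family, were mostly higher. Of 81 tested, 28 were called higher (34.6%, beside 3.64% of all genes tested) and 1 lower (1.23%, beside 2.17%). A positive sign was found in 78 (77 with centring, quantile normalization or mitochondrial rescaling), where 57% of all genes tested were positive. The median log2 fold change was 0.60. Rpl3, a protein of the peptidyl transferase center, had a log2 fold change of 1.38 (adjusted p 0.00707), and the one lower gene was its striated muscle paralog Rpl3l (-1.09, adjusted p 0.0163). The translation factors of mitochondria went the other way: 9 of 10 log2 fold changes were negative (median -0.31). Of the 10, 1 passed (10%), beside 2.17% of all genes tested that were called lower. That gene, Mtif2, the mitochondrial initiation factor, had 6.41, 5.38 and 5.36 FPKM in STZ libraries and 9.12, 10.1 and 9.75 FPKM in PBS libraries (-0.66, adjusted p 0.0434). Tufm, the mitochondrial counterpart of eEF1A, had 44.3, 50.5 and 44.8 FPKM in STZ and 77.0 and 62.7 FPKM in PBS (-0.57, adjusted p 0.0720).

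The remaining lists held no call by limma. Of the 8 tested genes of termination and recycling, 1 was at an unadjusted p under 0.05, and the median log2 fold change was -0.24. Among 8 poly(A)-binding and LARP genes the count at an unadjusted p under 0.05 was 1 higher and 3 lower, among 16 of signalling to initiation (mTORC1, its inhibitors and the MNK kinases) it was 2 higher and 3 lower, and among 5 of diphthamide synthesis, the eEF2 modification, 0 higher and 1 lower. Among the 5 genes of the eIF2 phosphatase no gene reached it, and among 4 initiation helicases 1 did, higher in STZ. Larp4b, an RNA-binding protein, had the smallest adjusted p of these lists of factors, with 4.26, 4.32 and 3.20 FPKM in STZ and 7.40 and 6.57 FPKM in PBS (-0.70, adjusted p 0.0515). Larp1, which binds TOP mRNAs, showed the same library pattern as Eif4e: 5.28, 5.01 and 2.80 FPKM in STZ and 14.5 and 5.72 FPKM in PBS, with PBS replicate 1 alone high. Of 7 other known TOP mRNAs none was called and 4 were higher at an unadjusted p under 0.05, led by Hnrnpa1 (0.61, adjusted p 0.0584) and Tpt1 (0.60, adjusted p 0.0589).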

How the data were processed

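Poly(A) RNA of myocardium was sequenced from 3 STZ and 3 PBS libraries. Per the labels' protocols, RNA was extracted with TRIzol, poly(A) selected and fragmented, and the second strand was marked with dUTP. The submitters' processing notes name cutadapt 1.9, HISAT2 2.0.4, StringTie 1.3.4d and the build GRCm38. Each deposited file holds one FPKM per gene with 2 decimals. For strand setting, annotation release and filters nothing is given in the sources used here, so reads of overlapping genes and near-identical copies could be shared. The depth is unknown, and no counting interval is given. Because FPKM scale with the library total, abundant genes move all others.

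Symbols and coordinates came from GENCODE M21 (55141 of 55401 identifiers matched). PBS replicate 3, whose file lists under 50% of the genes, was left out of the fit. A gene was tested if 2 or more of the 5 fitted libraries had 1 FPKM or more. The two-sided test was limma 3.58.1 (R 4.3.3) on log2(FPKM + 1), using lmFit and a trended eBayes, and p-values were adjusted by Benjamini-Hochberg over 11556 genes at a threshold of 0.05. Every adjusted p of a gene comes from it unless another fit is named beside the value, and a fold change on this scale understates that of low genes. The fit was tested on simulated data. Isoform shares used an exact permutation test. Copies were sequences with at least 90% identity over at least 80% of the copy. Full values are given for members past the threshold, the most abundant member of each complex and a fixed list of factors. Others shown, such as Eif3e, Eif3m, Eef1akmt4, Eef1b2 and Larp1, were named after their values were seen. The symbol rule for members, and the lists, were chosen with earlier results of these data known. Alternatives were other pseudocounts, filters, scalings, variance settings, a replicate block, adding PBS replicate 3 and leaving out each library. Sequences are from RefSeq (GRCm38.p6), and 51 of the 67 members matched a promoter.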

Additional observations from a re-analysis of the deposited data

How the results depend on the processing

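The number of members called higher, 4, became 1 without a filter on low values, 7 with a filter at 5 FPKM, 1 with the replicate block and 9 with PBS replicate 3 added. The share of all genes called higher, 3.64%, moved alike in these fits, to 0.175%, 7.23%, 0.312% and 6.38%, so the counts say little of the members alone. The number called lower, 1, became 0 without a filter, 0 after rescaling to TPM, 0 without the trend, 0 with the replicate block and 2 in the fit of all 6 libraries over genes listed in all, where the share of all genes called lower was 0.133%, 1.49%, 2.12%, 0.242% and 7.9%, against 2.17%. Leaving out 1 library gave 0 to 3 higher and 0 lower. Without PBS replicate 1 there were 0 calls by limma (7 higher and 3 lower at an unadjusted p under 0.05) and without PBS replicate 2 also 0 (11 higher and 2 lower), with the lone PBS library assumed to vary like the others. The Eef1a2 share changed to -24.5 points and the Eif5a2 share to 0.644 points when FPKM was multiplied by length. Leaving out 1 library gave -1.33 to 0.938 points for Eif4g1, -5.02 to 3.13 for Eif3j2 and 7.63 to 25.4 for Eif4e3. The log2 fold change of Eif2b5 turned to 0.046 in TPM, of Eif2s2 to 0.047 in TPM and 0.044 with the block, of Eefsec to 0.031 and of Eif2ak3 to 0.042 in TPM, and of Eif5 to -0.15 with the block and -0.045 with PBS replicate 3 added and in the 6-library fit. With 1 library left out, it ran from -0.071 to 0.025 for Eif2b5, -0.079 to 0.044 for Eif2s2, -0.12 to 0.091 for Eefsec, -0.13 to 0.12 for Eif2ak3, -0.16 to 0.33 for Eif5 and -0.0031 to 0.21 for Eif4a2. The cause was not tested. Higher calls were 62.6% of all calls, 48.5% with centring, 50.2% with quantile normalization and 73.8% in TPM.

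Whether replicate numbers pair the libraries is not stated in the labels. Same-numbered libraries had correlations of deviations of 0.18, -0.05 and 0.15 over 4811 genes, and differently numbered ones -0.23 to 0.093. With 3 libraries in each group these values cannot decide it. Under the replicate block Eif4ebp1 was the only member called.

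With 3 libraries against 2, unknown depth and one PBS file of 7711 genes, small differences could not be resolved. The endothelial, neutrophil and erythroid marker sums and the mitochondrial share did not overlap between the groups. Nor did the fibroblast sum without Gsn and the smooth muscle and pericyte sum without Rgs5. PBS replicate 1 stood apart for Eif4e.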
